A study of Mus musculus with 2 samples.

Results

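The mitochondrial carrier genes are the protein-coding mouse genes of the Slc25a family, and they were examined here for binding by GATA4 in adult mouse liver. Members were 46 of the genes of GENCODE mouse release 21 whose symbol is Slc25a followed by a number, out of 21755 protein-coding genes on the autosomes and chromosome X. A peak of the authors' optimal list was counted for a member when its summit, the position of highest signal in the peak, lay in the gene or within 10 kb of it. By this rule 32 of the 46 members had a summit. The rule used gene names and positions only, but the members were chosen with earlier results of these data known. Of the 24050 peaks analysed, 72 lay near a member.

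The assay was chromatin immunoprecipitation with an antibody against GATA4, followed by sequencing, on whole liver of healthy adult mice, and the series holds 1 group of 2 samples labelled biological replicates 1 and 2. The labels do not give strain or sex, and give the age as unknown. Both samples carry the same tissue and donor identifiers, so differences between them may be technical. With no treated group, the data allow comparisons between members and other genes, between peaks and their flanks, and between the replicates. The files hold peak lists and no reads, so the number of reads behind a peak cannot be given. Replicate 1's thresholded list held 4287 peaks and that of replicate 2 held 26314, so support from replicate 1 is the rarer of the pair throughout. Whole liver mixes hepatocytes with endothelial and other cells, and a peak does not say in which of them GATA4 was bound. By the same rule all 8 hepatocyte markers and all 7 markers of the liver sinusoidal endothelium had a summit. So did 0 of 5 Kupffer cell and 1 of 5 stellate cell markers. The marker lists were chosen with earlier results of these data known, so these counts are a description and not a check of the tissue. The shares of genes of like span would give 3.41 of the hepatocyte, 3.53 of the endothelial, 2.73 of the Kupffer cell and 2.85 of the stellate cell markers. These are positions of peaks and not levels of RNA.

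Mitochondrial carriers are proteins of the inner mitochondrial membrane that move nucleotides, phosphate, organic acids, amino acids and cofactors between the cytosol and the matrix. In liver they link the cytosolic and mitochondrial steps of the urea cycle, of glucose and fat synthesis and of fatty acid oxidation. GATA4 is a zinc-finger transcription factor that binds the GATA motif, taken here as AGATA or TGATA followed by A or G, on either strand. A GATA motif within 50 bp of the summit was found at 50.5% of the 18145 peaks near any protein-coding gene, and at 15.2% of windows of equal length lying 500 bp to each side of them.

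The DNA under the strongest peaks of the family is shown first, because most of the strongest peaks have a GATA motif. Each line gives the plus strand of GRCm38 (mm10), 5′ to 3′, within 50 bp of the summit, with matches to the GATA motif in capitals. The first 6 lines are the strongest peaks of the 6 highest members by rank. Rank is by the peak caller's signal score in the optimal list, where 1 is the strongest. The summit of Slc25a44 lies in the 3′ untranslated region, and only the bases around its GATA motif are printed.
Slc25a23, rank 10, chr17:57060500-57060600: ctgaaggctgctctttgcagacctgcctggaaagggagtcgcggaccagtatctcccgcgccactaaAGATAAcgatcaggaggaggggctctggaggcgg
Slc25a48, rank 104, chr13:56461589-56461689: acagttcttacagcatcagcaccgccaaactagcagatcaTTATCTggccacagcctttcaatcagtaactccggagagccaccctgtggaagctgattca
Slc25a22, rank 758, chr7:141420411-141420511: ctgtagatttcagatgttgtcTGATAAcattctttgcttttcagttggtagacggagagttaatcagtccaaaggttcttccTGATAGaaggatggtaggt
Slc25a25, rank 986, chr2:32418644-32418744: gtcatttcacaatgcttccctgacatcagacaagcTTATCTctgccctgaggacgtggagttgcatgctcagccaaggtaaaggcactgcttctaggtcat
Slc25a44, rank 1325, chr3:88411858-88411883: tggcctgaggAGATAAgagtgaggaa
Slc25a51, rank 1701, chr4:45413758-45413858: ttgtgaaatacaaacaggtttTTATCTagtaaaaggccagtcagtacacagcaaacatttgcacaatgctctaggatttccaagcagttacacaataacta
Of these 6 peaks, 5 hold the form AGATAA, on the strand shown at Slc25a23 and Slc25a44 and as its complement TTATCT at Slc25a48, Slc25a25 and Slc25a51. The centre of the motif lay 8 bp from the summit at Slc25a48, 12 bp at Slc25a25, 20 bp at Slc25a23, 24 bp at Slc25a44 and 26 bp at Slc25a51. The peak of Slc25a22 holds 2 motifs, TGATAA at 26 bp and TGATAG at 34 bp from the summit.

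Further sequences show the contrast within the family. The strongest promoter summit without a GATA motif is a second peak of Slc25a22, 364 bp from its start site, printed first below. The peaks of Slc25a32 and Slc25a11 hold 3 motifs each, and were chosen for display after their values were seen. The peak counted for Slc25a11 lies 57 bp from the start site of Gp1ba, which encodes a platelet surface glycoprotein, and 7993 bp from that of Slc25a11.
Slc25a22, rank 3720, chr7:141437217-141437317: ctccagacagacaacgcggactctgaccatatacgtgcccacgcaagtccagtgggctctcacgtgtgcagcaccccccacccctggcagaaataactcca
Slc25a32, rank 3397, chr15:39105595-39105695: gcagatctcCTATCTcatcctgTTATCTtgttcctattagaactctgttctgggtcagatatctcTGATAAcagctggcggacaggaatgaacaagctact
Slc25a11, rank 4860, chr11:70639015-70639115: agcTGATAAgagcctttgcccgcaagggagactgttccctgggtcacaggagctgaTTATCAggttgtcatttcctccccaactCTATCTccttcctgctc

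A larger share of the carrier genes than of other genes had a GATA4 summit. Among the 46 members 69.6% had one (95% Wilson interval 55.2 to 80.9%), against 47.6% of all protein-coding genes. Genes of like span give a similar background: applying to each member the share of genes in its own of 20 bins of gene length gives 22.4 members, or 48.7%. The median span was 21128 bp for members and 17414 bp for all genes. Members had a mean of 1.59 summits and all genes 1.12. A single summit was found at 16 of the 46 members and at 4753 of the 21755 protein-coding genes. Another 16 members (34.8%) had 2 or more, against 25.7% of all genes. The intervals cover counting error only, genes are not replicates, and no test was made.

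The share was above the background in each list and class of peak examined, although with few members in some. In replicate 2's own list 34 of 46 members had a summit (73.9%), against 51.8% of all genes. Replicate 1's shorter list reached 9 members (19.6%, 10.7 to 33.2%), against 11.4% of all genes and 10.5% of genes of like span. The interval holds the former, and the latter lies just below it. The authors' conservative list reached 18 members (39.1%, 26.4 to 53.5%), against 21.9%. A summit within 1 kb of the member's own start site was found at 16 members (34.8%, 22.7 to 49.2%). The share was 22.6% of all genes, just below the interval, and 24.1% of genes of like span, inside it. Summits outside promoters lay near 24 members (52.2%, 38.1 to 65.9%), against 31.2% of genes. When those summits also had to hold a GATA motif the count was 15 members (32.6%, 20.9 to 47.0%), against 23.9%, inside the interval. Peaks among the strongest 10% lay near 7 members (15.2%, 7.57 to 28.2%), against 8.25%, also inside the interval.

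**Figure D1:**
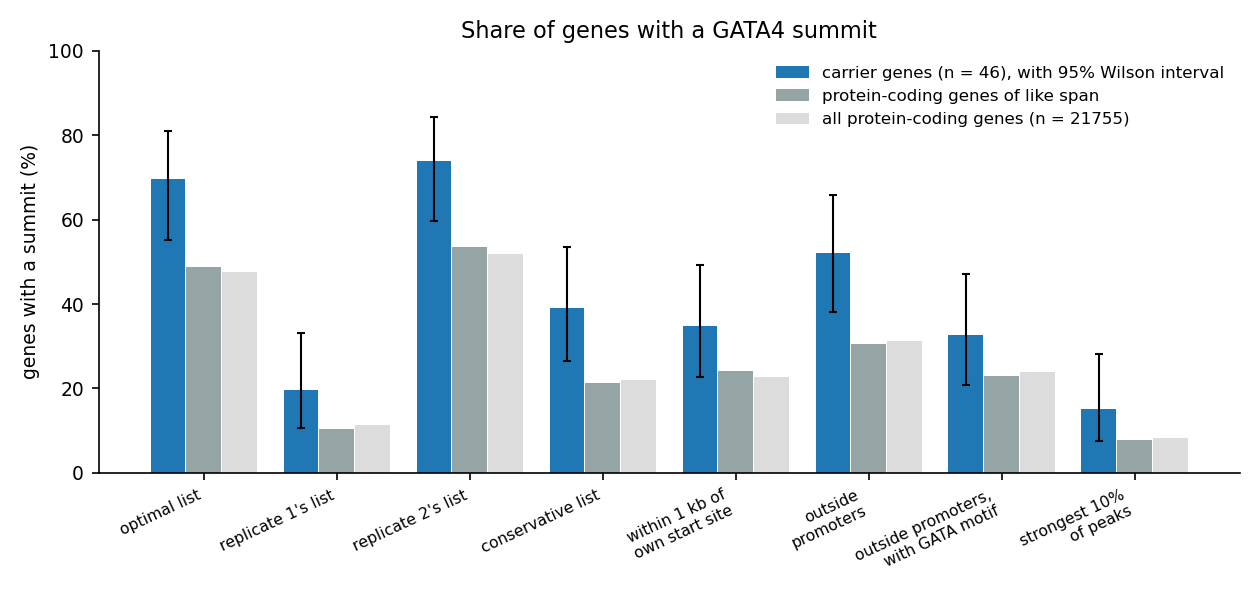
Percentage of genes with a GATA4 summit (y axis) under 8 choices of peak list or peak class (x axis) for the 46 carrier genes, with 95% Wilson intervals, for genes of like span and for all 21755 protein-coding genes. The carrier share is 69.6% against 47.6% of all genes with the optimal list. With replicate 1's list the interval of the carrier share (10.7 to 33.2%) holds the 11.4% of all genes. The 10.5% of genes of like span lies just below it.

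A carrier gene's strongest peak was usually of ordinary rank. The median rank of the strongest peak was 9847 over the 32 members with a summit and 8666 over all genes with a summit. Ranks ran from 10 at Slc25a23 to 21559 at Slc25a5. The 14 members with the highest ranks, from Slc25a23 to Slc25a36 (rank 6351), all had a GATA motif at their strongest peak. Of the 18 members ranked after them, 2 did, Slc25a20 and Slc25a21. The line between the 14 and the 18 was drawn at the first member whose strongest peak lacked the motif. That all 14 had it was therefore fixed by the choice of the line. At peaks near any gene the motif share also fell with rank, from 75.7% in the strongest 20% of the list to 30.6% in the weakest. In the plot of summits by rank, the strongest summits mostly bear the motif, and further right summits with and without it are mixed. Of the family's 31 motif-bearing summits, 4, 7 and 2 lay in the 3 weakest groups of 20% of the list, in that order.

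**Figure D2:**
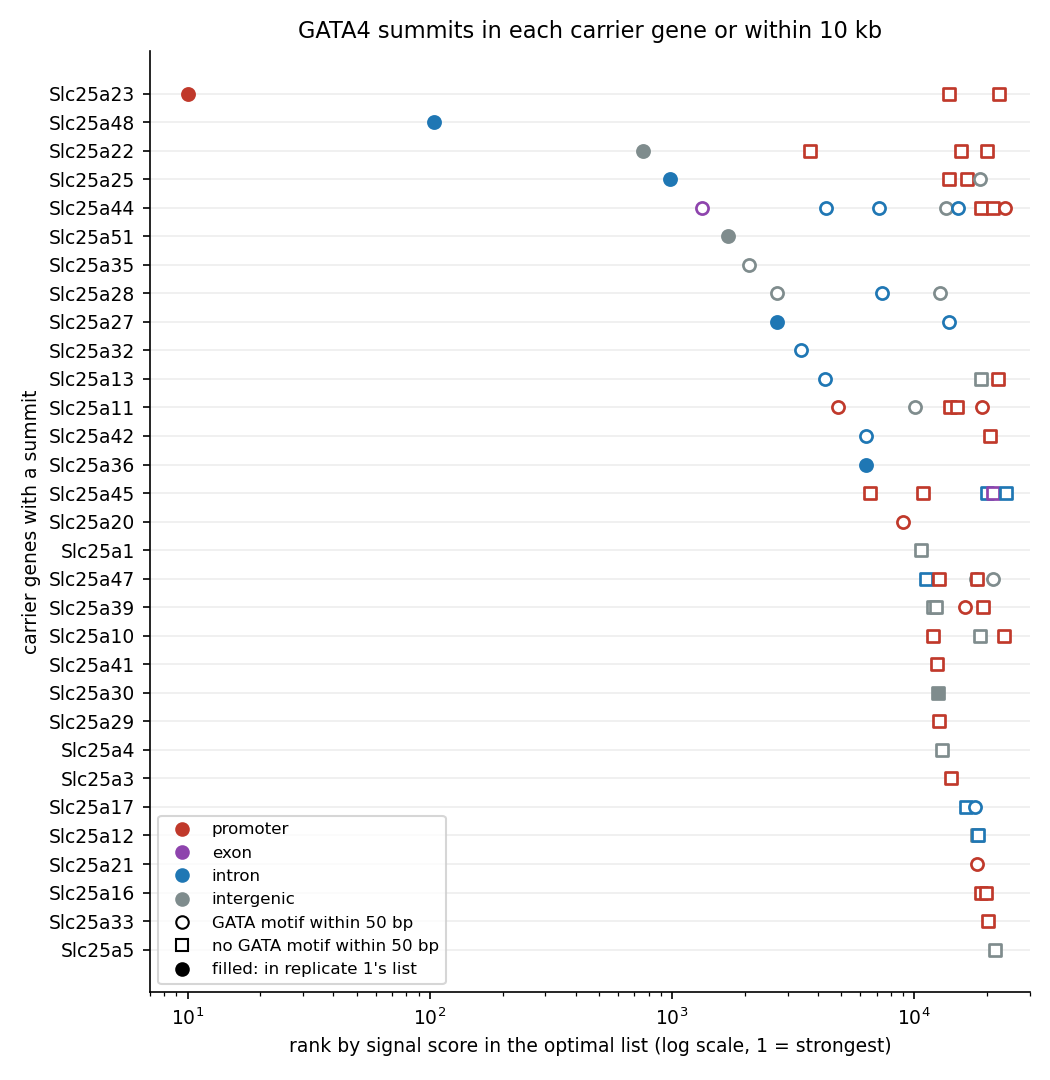
Each point is a summit of the optimal list in a carrier gene or within 10 kb, with its rank by signal score on a log x axis and 31 of the 32 genes with a summit, in order of their strongest peak, on the y axis. Colour gives position class, circles have a GATA motif within 50 bp of the summit and squares have none, and filled points are also in replicate 1's list. The first square in a gene's leading position is Slc25a45 at rank 6546.

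Carriers of nucleotides and phosphate held the family's strongest peak. Of the 11 members in this group 9 had a summit, against 5.19 at the share of genes of like span. Slc25a23 encodes a calcium-regulated carrier that exchanges ATP-magnesium for phosphate. Its strongest peak, on chromosome 17 at 57060349 to 57060724, had its summit 687 bp upstream of the Slc25a23 start site and inside the neighbouring gene Crb3, which encodes a protein of epithelial polarity. Its signal score was 264 in the optimal list. In the replicates' own ranked lists, the score was 33.1 in replicate 1 (rank 640 of 52203) and 228 in replicate 2 (rank 5 of 88985). The peak was therefore high in both lists. Scores are not on a common scale between lists and are given only to place a peak within its list. The other summits of Slc25a23 ranked 13972, at the Crb3 start site, and 22464, at 109 bp from its own start site, and neither had a GATA motif.

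Slc25a25, a second calcium-regulated ATP-magnesium carrier, had 4 summits. The strongest lay in an intron, on chromosome 2 at 32418580 to 32418756, and scored 22.9 in replicate 1 and 87.1 in replicate 2. Summits at 2 of its start sites, 105 and 4 bp away, ranked 13932 and 16502 without a GATA motif. In the plot of 4 loci, the tallest peak of Slc25a25 stands away from the start sites and those on them are low. Slc25a41, a further ATP-magnesium carrier but not one described here as calcium-regulated, had 1 summit, of rank 12389. It lay 681 bp from a start site of Khsrp and 9444 bp from that of Slc25a41. Slc25a36, which carries pyrimidine nucleotides, had an intronic peak of rank 6351 that passed the threshold in both replicates and scored 25.1 in replicate 1 and 31.0 in replicate 2. Slc25a33, a related pyrimidine nucleotide carrier, had only a promoter summit, of rank 20124.

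The ADP/ATP and phosphate carriers had peaks of low rank. Slc25a4 and Slc25a5 encode the ADP/ATP carriers ANT1 and ANT2, and Slc25a3 encodes the phosphate carrier that supplies ATP synthase. Their single summits ranked 13017 for Slc25a4, 5764 bp upstream of its start site, 14205 for Slc25a3, 2 bp from its start site, and 21559 for Slc25a5, 12332 bp from its start site. None of these held a GATA motif, and none was in replicate 1's ranked list. Slc25a17, the peroxisomal member of the family, had 2 intronic summits of rank 16320 and 17778. Slc25a24 and Slc25a31 had none.

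**Figure D3:**
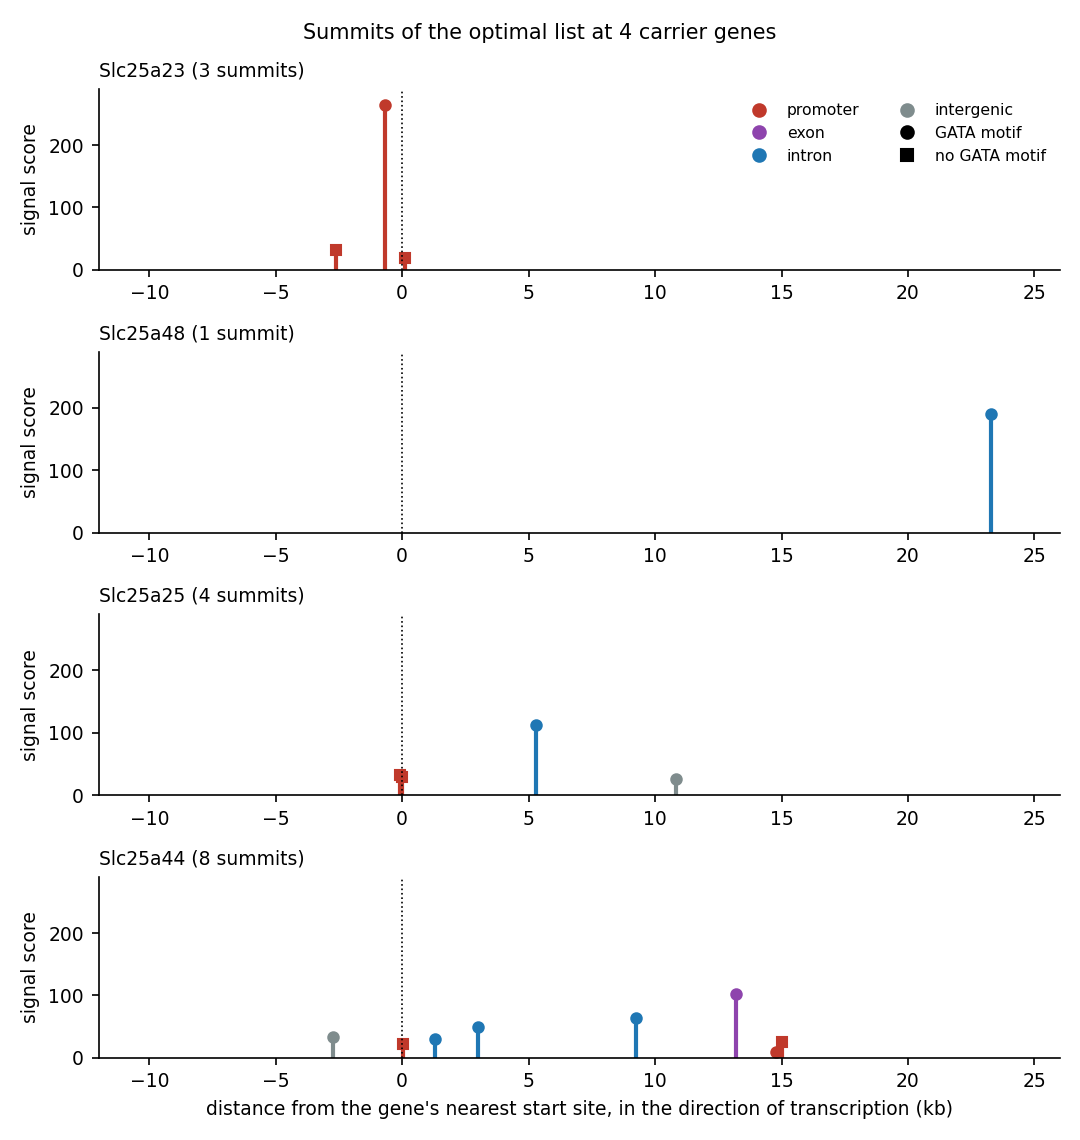
Summits of the optimal list at Slc25a23, Slc25a48, Slc25a25 and Slc25a44, with the distance from the gene's nearest start site in kb on the x axis, counted in the direction of transcription, and the signal score in the optimal list on the y axis. Colour gives position class, circles have a GATA motif and squares have none. The summit of Slc25a23 at 687 bp scores 264, and the other promoter summits drawn score 32.4 or less.

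Amino acid carriers held 19 of the 73 pairs of member and summit, the most of any group, at 6 of 9 members (4.34 at the share of genes of like span). Slc25a48, which transports choline and was listed with this group, had a single summit in an intron, on chromosome 13 at 56461508 to 56461771, 23284 bp from its start site. Its score was 190 in the optimal list, 42.2 in replicate 1 (rank 290) and 145 in replicate 2 (rank 112). The nearest start site was that of Il9, at 20607 bp. Slc25a44, a carrier of branched-chain amino acids, had 8 summits, the largest number in the family. Genes with 8 or more made up 1.46% of all protein-coding genes. The 8 summits of Slc25a44 ranked from 1325 to 23733, 6 of them had a GATA motif, 7 were in replicate 2's list and none was in replicate 1's. The strongest, in its 3′ untranslated region, scored 16.1 in replicate 1's ranked list, with an IDR score of 537, and 91.8 in replicate 2's. A score of 540 is the threshold of the replicate lists, so this peak lay just outside replicate 1's list. Its nearest start site was that of Pmf1, at 1564 bp, and overlapping peaks at the Pmf1 start site accounted for 2 of the 8 summits.

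Slc25a22 encodes a glutamate carrier. Its strongest peak was intergenic, on chromosome 7 at 141420408 to 141420519, beyond the end of the gene and 6325 bp from the start site of Gatd1. It scored 29.1 in replicate 1 and 91.2 in replicate 2 and was in both lists. The other 3 summits counted for Slc25a22 lay at promoters, 2 of them its own and 1 that of Rplp2, and none had a GATA motif. Slc25a13 and Slc25a12 encode the aspartate-glutamate carriers citrin and aralar, and citrin is the main form in liver. Slc25a13 had 3 summits, the strongest in an intron at 31235 bp from its start site with rank 4301, which scored 8.32 in replicate 1 and 54.2 in replicate 2. Slc25a12 had 2, of rank 18231 and 18396, without a GATA motif and in neither replicate's list. The second of these windows was wholly in sequence masked as repeat. Slc25a29, a carrier of basic amino acids, had 1 promoter summit of rank 12631, which was in neither replicate's list and also lay within 10 kb of Slc25a47. Slc25a2, Slc25a18 and Slc25a38 had none.

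Carriers of cofactors and acyl groups had a summit at 7 of 9 members (4.64 at the share of genes of like span). Slc25a51, the mitochondrial NAD carrier, had 1 intergenic peak on chromosome 4 at 45413713 to 45413868, 5042 bp upstream of its start site. It scored 93.6 in the optimal list, 29.2 in replicate 1 and 63.5 in replicate 2, and was in both lists. Slc25a32, a carrier of folate and flavin nucleotide, had the intronic peak with 3 GATA motifs shown above. That peak scored 26.9 in replicate 1, where its IDR score of 485 missed the threshold, and 43.6 in replicate 2. Slc25a42, the coenzyme A carrier, had an intronic summit of rank 6343 with 2 GATA motifs and a promoter summit of rank 20649 without one. Slc25a20 encodes the carnitine-acylcarnitine carrier of fatty acid oxidation. Its only summit lay 709 bp from the start site, ranked 8975 and held AGATAA. It scored 10.2 in replicate 1, below the threshold, and 33.5 in replicate 2.

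Slc25a39, a glutathione carrier, had 4 summits within 2190 bp of its start site, of rank 11975 to 19312, and 1 of them had a GATA motif. Slc25a16 had 2 promoter summits, of rank 18899 at Dna2 and 19869 at its own start site. Slc25a26 and Slc25a40 had none.

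Carriers of organic acids had a summit at 5 of 6 members (2.36 at the share of genes of like span), with none in replicate 1's list. Slc25a35 led them with an intergenic peak of rank 2085, 4526 bp upstream of its start site, which scored 15 in replicate 1 and 73.3 in replicate 2. For Slc25a11, the oxoglutarate-malate carrier, 5 summits were counted, of which 1 (rank 15059) lay at its own start site, 65 bp away. The other 4 were nearest to start sites of Gp1ba, Pfn1 and Eno3. Slc25a1, the citrate carrier that supplies fat synthesis, had 1 summit, of rank 10719 at 6291 bp from its start site. Slc25a10, the dicarboxylate carrier, had 3, of which 2 lay at the start site of Mrpl12. Slc25a21 had a promoter summit of rank 18238 with a GATA motif. None of the summits of Slc25a1 and Slc25a10 had one. Slc25a34 had no summit.

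The mitochondrial iron importers are Slc25a28 and Slc25a37, and 1 of these 2 had a summit, against 0.996 at the share of genes of like span. Slc25a28, which encodes mitoferrin-2, the form found in most tissues, had 3 summits and each had a GATA motif. Their ranks were 2708, 7352 and 12824. The strongest, 4862 bp upstream of the start site, scored 20.6 in replicate 1, with an IDR score of 452 that missed the threshold, and 58.5 in replicate 2. The third overlapped it. Slc25a37, which encodes mitoferrin-1, the erythroid form, had none in any of the 6 lists compared. Its highest peak in the pooled ranked list had an IDR score of 303. The difference between 2 genes has no replicate check and was not tested.

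Of the 3 carriers related to uncoupling proteins, Slc25a27 and Slc25a30 had a summit and Slc25a14 had none. The share of genes of like span would give 1.7 of the 3. The stronger of 2 peaks of Slc25a27 ranked 2713, lay in an intron of Cyp39a1, which encodes an oxysterol hydroxylase, and scored 22.9 in replicate 1 and 54.2 in replicate 2. The summit of Slc25a30 ranked 12564 and 55.4% of its window was repeat sequence. It was the 1 member peak found in replicate 1's list but not in replicate 2's. Among the 6 other members 2 had summits, Slc25a45 and Slc25a47, fewer than the 3.2 at the share of genes of like span. Slc25a47 encodes a carrier expressed mainly in liver, and its 5 summits ranked from 11237 to 21055. The strongest of them lay in an intron of Wars, 2 had a GATA motif, 4 were in replicate 2's list and none was in replicate 1's. Slc25a45 also had 5, of which 1 (rank 6546) lay at its own promoter, 713 bp from the start site, and 3 lay in Frmd8. None of the 5 had a GATA motif. Slc25a43, Slc25a46, Slc25a53 and Slc25a54 had no summit.

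The 14 members without a summit were not equally empty in the authors' longer, unthresholded ranking of the pooled reads, which held 81170 peaks. Slc25a14, Slc25a18, Slc25a31 and Slc25a40 had no peak there within 10 kb. Slc25a43 and Slc25a26 had peaks with IDR scores of 622 and 565, past the threshold of that run, and Slc25a26's lay 67 bp from its start site. Slc25a53 reached 481. The other 7 had best scores from 89 at Slc25a2 and Slc25a46 to 355 at Slc25a24 and Slc25a54, which share that peak. Slc25a26, Slc25a43 and Slc25a53 had a summit in replicate 2's own list. A missing summit therefore means that no peak passed the threshold of the optimal list, not that GATA4 was absent.

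At some summits a neighbour's start site was closer than the member's own. Of the 73 pairs of member and summit, 49 (67.1%) had the member's start site as the nearest one and 24 had that of another gene. Of the 33 pairs at promoters, 20 were at the member's own start site and 13 only at that of another gene. The same shares over all genes were not computed, so these counts do not set the family apart from other genes. By nearest start site 28 members had a summit among those within 10 kb. The files do not assign peaks to genes. Some peaks also overlapped, and merging them left 66 separate regions.

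Promoters held 32 of the 72 peaks (44.4%, 33.5 to 55.9%), against 28.6% of the 18145 peaks near any protein-coding gene. A promoter summit is one within 1 kb of any protein-coding start site. Introns held 19 (26.4%, 17.6 to 37.6%), against 53.6%, and intergenic sequence 19 (26.4%), against 14.7%. Exons held 2 (2.78%), against 3.09%. Unlike the shares of genes, these shares of peaks were not adjusted for gene span, and its part in the differences was not tested. Promoter summits of the family had a median GC content of 62.9% and other summits 51.0%, close to the 63.4% and 48.5% of peaks near any gene. Windows that were at least 50% repeat numbered 4 of 72 (5.56%), against 3.6% near any gene.

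GATA motifs had a share at the family's peaks close to that at other peaks of the same class. Of the 40 summits outside promoters 24 had a motif (60.0%, 44.6 to 73.7%), against 60.5% near any gene, and 12.5% of the flanks of these 40 did. Of the 32 promoter summits 7 had one (21.9%, 11 to 38.8%), against 25.7%, and 10.9% of their flanks did. Over all classes the share was 43.1% (31 of 72), against 50.5%. The motif lay a median of 17.5 bp from the summit, and it did so at peaks near any gene too. AGATAA made up 19 of the 38 sites, against 45.2% of sites near any gene. By strength, 12 of the 13 member peaks in the strongest 20% of the list had a motif, against 75.7% near any gene. In the next 20% it was 6 of 7 (58.4% near any gene), and in the 3 weaker groups 4 of 19, 7 of 18 and 2 of 15 (48.1, 41.8 and 30.6%).

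The short core of ETS factor sites was found at a smaller share of the family's peaks than of peaks in general. This core was searched as AGGAA or CGGAA followed by A or G, on both strands. It occurred within 50 bp of 16 of 72 summits (22.2%, 14.2 to 33.1%), against 45.7% of peaks near any gene. Its share in the flanks of the family's peaks was 25%, and in those near any gene 25.5%. Outside promoters it was at 6 of 40 summits (15%, 7.06 to 29.1%), against 47.0%. At promoters it was at 10 of 32 (31.2%, 18.0 to 48.6%), against 42.3%, inside the interval. The 5 copies at the strongest peak of Slc25a28 were the most at any member summit. This motif was 1 of 10 searched, and no test was made. A motif match is a description of the letters and does not show binding by a factor.

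For the other motifs, the share near any gene lay inside the interval of the family's share, except for GGGCGG outside promoters. GGGCGG, the box bound by SP factors, was at 9 of 32 promoter summits (28.1%), against 30.4% near any gene. Outside promoters it was at 4 of 40 (10%, 3.96 to 23.1%), against 3.79%, just below the interval. CCAAT, the box bound by NFY, occurred in 8 of the 32 promoter windows (13.3 to 42.1%), against 14.8%, and in 1 of the 40 others (2.5%, 0.443 to 12.9%), against 12.1%. AGGTCA, a core bound by nuclear receptors, was at 10 of 72 (13.9%), against 11.2%, and the E-box CAGCTG at 5 of 72 (6.94%), against 7.54%. The motifs of factors known to control mitochondrial genes were rare both at the family's peaks and at peaks near any gene. The palindromic site of NRF1 was at 2 of 72 summits (2.78%, 0.765 to 9.57%), at the Pfn1 and Dna2 start sites, against 1.29%. CCGGAAG, the site of GABP, was at 1 (1.39%, 0.246 to 7.46%), a promoter of Slc25a25, against 4.15%. TCAAGGTCA, the site of the estrogen-related receptors, was at 0 of 72, which allows a share of up to 4.17%, against 0.424%.

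**Figure D4:**
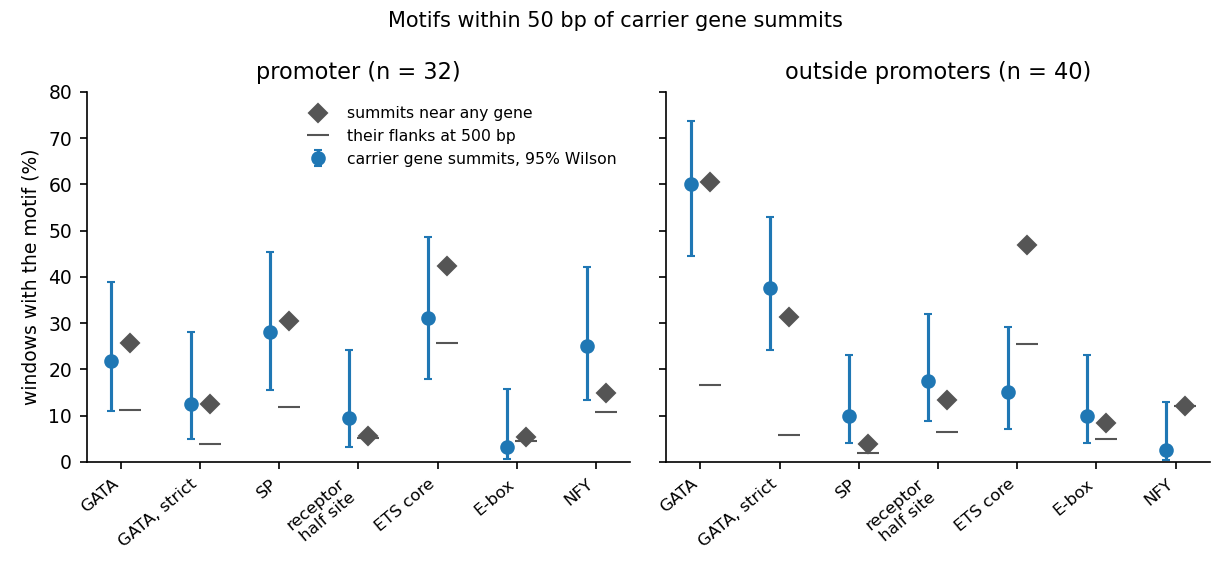
Percentage of windows of 50 bp to each side with a motif (y axis) at carrier gene summits, with 95% Wilson intervals, at summits near any protein-coding gene (diamonds) and in windows 500 bp to each side of the latter (dashes), for 32 promoter summits (left) and 40 others (right). Outside promoters the GATA motif is at 60.0% against 60.5%, and the ETS core at 15% against 47.0%.

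Most of the family's peaks, 53 of 72 (73.6%, 62.4 to 82.4%), were supported by replicate 2 alone, against 67.9% of peaks near any gene. Replicate 2's list had an overlapping peak, by 1 base or more, for 60 of the 72 (83.3%, 73.1 to 90.2%), and replicate 1's for 8 (11.1%, 5.74 to 20.4%). The shares were 82.7% and 15.4% for peaks near any gene, inside both intervals. Both lists held 7 peaks (9.72%), against 14.8% of peaks near any gene, and neither held 11 (15.3%), against 16.7%. The 7 in both were the strongest peaks of Slc25a23, Slc25a48, Slc25a22, Slc25a25, Slc25a51, Slc25a27 and Slc25a36, and each of them had a GATA motif. Near any gene, 2040 of the 2686 peaks in both lists had one. Only 1 of the 32 promoter peaks, that of Slc25a23, was in replicate 1's list, whereas 29 were in replicate 2's. Near any gene the shares of promoter peaks were 6.14% and 83.6%. In the longer ranked lists, which hold peaks below the threshold as well, 24 of 72 (33.3%) were found in replicate 1's and 70 (97.2%) in replicate 2's. For peaks near any gene these shares were 42.1% and 98.2%. When replicate 2's list was shortened to the length of replicate 1's, it reached 10 members and 14.6% of all genes. Replicate 1's own list reached 9 members (19.6%) and 11.4% of all genes.

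**Figure D5:**
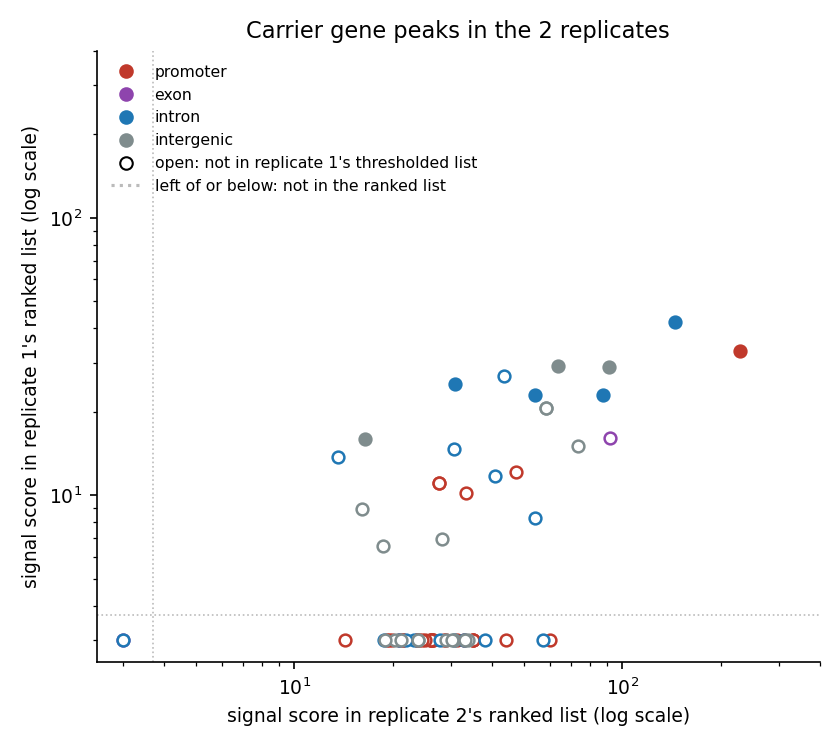
Signal score of each carrier gene peak in replicate 2's ranked list (x axis, log scale) and in replicate 1's (y axis, log scale), with colour for position class. Points below the horizontal or left of the vertical dotted line have no peak in that ranked list and are drawn at an arbitrary low value, and filled points are in replicate 1's thresholded list. The peaks of Slc25a23 (228 and 33.1) and Slc25a48 (145 and 42.2) lie at the upper right. A counterpart in replicate 1's ranked list was found for 24 of the 72 peaks (33.3%), against 42.1% of peaks near any gene.

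Other genes of mitochondrial transport and protein import gave a similar share in the optimal list, but a smaller one for its strongest peaks. Of 36 such genes, listed by function, 22 had a summit (61.1%), against 18.0 at the share of genes of like span. In replicate 2's list 77.8% of them had a summit, against 73.9% of the carrier genes and 51.8% of all genes. In the conservative list the shares were 25%, 39.1% and 21.9%, and for summits outside promoters with a GATA motif 33.3%, 32.6% and 23.9%. For peaks among the strongest 10% they were 5.56%, 15.2% and 8.25%. These differences were not tested. The strongest was at Mcu, the pore of the mitochondrial calcium uniporter, with 9 summits and rank 60. Mpc1, a subunit of the mitochondrial pyruvate carrier, had 2 summits, the stronger of rank 1497. Ucp2 and Ucp3, uncoupling proteins of the same protein family whose symbols fall outside the rule, shared a strongest peak of rank 14402, and Ucp1 had none.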

How the data were processed

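GATA4 peaks of 2 liver samples were deposited as peak lists on mm10, per the labels and the deposited README tables. No source used here names the aligner or the peak caller. Each peak has an IDR score and a signal score, both deposited by the authors. The IDR score rises as the irreproducible discovery rate falls, and by the convention of IDR output 540 stands for a rate of 0.05. The lowest score was 540 in the replicates' lists and 537 in the optimal list. The signal score has no stated unit and only ranked peaks within a list. Per the README tables, the optimal and conservative lists derive from other alignment files than the replicates' lists and the pooled ranked list, called here a second run.

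Peaks outside the assembled chromosomes, 33 in the optimal list, were left out. Genes and start sites came from GENCODE M21 basic and sequence from GRCm38.p6, read with pysam 0.24.0 and counted with pandas 2.3.3. Overlap meant 1 shared base. Flanking windows lay 500 bp from the summit. The code was tested on simulated data. Not every gene of the family is reported here by name. The rule named the 25 members of highest rank and every member without a summit. In place of random genes, the share of all genes in the same span bin was used. The members and lists were chosen with earlier results of these data known. No p-value was computed, since 1 group allows no contrast and genes are not replicates. Alternatives covered the peak list, distance, promoter, motif and overlap definitions. Wilson intervals cover counting error only.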

Additional observations from a re-analysis of the deposited data

How the results depend on the processing

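The optimal list gave 32 members, 73 summits and a median percentile rank of 40.9 for the strongest peak. Its member peaks were 44.4% promoter, 43.1% with a GATA motif, with 11.1% overlapping replicate 1's list and 83.3% overlapping replicate 2's. Of 54 values under alternatives, 27 stayed within a set limit of the main value and 27 moved. The limit was 1.5 times for a count, the interval for a share and 2.46 for a median percentile. This 2.46 is the standard deviation of the median percentiles from the 2 replicates' own lists. Without replicate 1 or 2, that is with the other's own list, members ranged from 9 to 34, summits from 9 to 79, promoter share from 22.2 to 51.9%, motif share from 46.8 to 77.8% and median percentile from 32.3 to 35.8. All the low counts and the high motif share came from replicate 1's list alone. The conservative list gave 18 members, 22 summits, 31.8% promoter, 81.8% with the motif and a percentile of 31.3. The pooled list of the second run gave a percentile of 37.9, and an IDR of 0.01 gave 43 summits. Only summits inside the gene numbered 32. Within 1 kb of the own start site there were 16 members and 20 summits, within 5 kb 20 and 34, and within 50 kb of the gene 138 summits. Promoters within 500 bp held 31.9%. AGATAA alone was at 26.4%, a window of 100 bp raised the motif share to 55.6%, and flanks had 11.8%. The strongest 25000 relaxed peaks supported 27.8% (replicate 1) and 93.1% (replicate 2). Chosen after seeing the data, replicate 2's list cut to the length of replicate 1's gave 10 members, and summits outside promoters numbered 40. The cause was not tested. The share of members was above that of all genes under each of the 12 alternatives to the member count. No paired analysis was possible because there is 1 group. Read depth is unknown, so absence from a list is no proof of absence of binding.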
